A study of Homo sapiens with 24 samples.

Results

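The comparison described here sets PANC-1 cells treated with CID661578 against PANC-1 cells treated with cercosporamide, in total RNA of cytosolic lysates. Its members are the 8 total RNA libraries of these treatments out of the 24 libraries of the series, 4 for each compound, chosen by their labels. The test ran on the 14347 of 54583 genes that had no zero count in these 8 libraries. PANC-1 cells are an established human line, derived from a ductal adenocarcinoma of the pancreas, and every plate in the series carried the same line in complete growth medium. One group received CID661578 at 40 µM and the other cercosporamide at 5 µM, each for 6 h, with 4 biological replicates per treatment. Since the doses differ, the compound and its dose cannot be told apart in any difference below. Plates with DMSO were handled in parallel in the same replicates. Their levels are given beside the results as the background, on the same scale, without entering the test. Polysome-associated RNA, from fractions with mRNAs on more than 3 ribosomes, came from the same lysates and is used below where the difference in total RNA is set against it.

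MNK2 is a kinase that docks on the scaffold eIF4G and phosphorylates the cap-binding protein eIF4E. Cercosporamide is a fungal metabolite in wide use as an inhibitor of MNK kinase activity. CID661578, known by its code name, is described as a binder of MNK2 that keeps it from eIF4G, not as a kinase inhibitor. The total RNA level of a gene reflects how fast its RNA is made and how fast it is lost. In the integrated stress response, kinases that phosphorylate eIF2α lower general initiation while the transcription factor ATF4 is made, and ATF4 switches on genes for amino acid supply, redox balance and, with DDIT3, cell death. The mitochondrial genome is transcribed from both strands as long precursors, and the tRNAs that lie between the mRNAs and rRNAs are cut out to release them.

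The 8 libraries held between 9378714 and 12184749 reads on genes, so depth was similar in both groups. Of the epithelial and duct markers, KRT8, KRT18 and KRT19 were at 616 CPM (counts scaled to library size) or more in every library, whereas CFTR was at 0 in all 8 and CDH1 reached at most 0.660 CPM. Of the 6 mesenchymal markers VIM ranged from 699 to 1061 CPM and 1 gene, ZEB1, was called. CDH2 had 4.84 to 12.4 CPM, while ZEB2, SNAI2 and FN1 reached at most 1.98, 0.885 and 0.111 CPM. Summed levels of the acinar, endocrine, fibroblast and endothelial lists were at most 7.36 CPM in every library, with INS and PTPRC at 0. The 4 immune markers summed to 401 to 587 CPM with CID661578 and 427 to 743 CPM with cercosporamide, and nearly all of it was CD68. In replicate 3, stress genes were high under DMSO and cercosporamide too. In polysome-associated RNA the library of replicate 4 with cercosporamide was shallow, with 1592459 reads, so the polysome results were also computed without that replicate.

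With the quasi-likelihood test of edgeR, replicate number as a block and a Benjamini-Hochberg adjusted p below 0.15, 69 genes were called. Of these 38 were higher with CID661578 (0.265% of the genes tested) and 31 were lower (0.216%). Differences are given as log2 of CID661578 over cercosporamide with their standard error (SE), so that positive values mean more RNA with CID661578. Among the called genes 57 differed by at least 2-fold, 33 upwards and 24 downwards. Of the genes called higher, 37 of 38 had the same sign in all 4 replicate pairs, and SLC38A2, an amino acid transporter, was the exception. All 31 genes called lower had the same sign in the 4 pairs. Over all genes tested, 8.06% were higher and 9.0% lower in the 4 pairs. The calls were made on these same pairs, so the agreement of sign is no separate check. The libraries of the compounds did not overlap for 20 of the genes called higher and 24 of those called lower, while over all genes tested 1.57% lay fully above and 1.91% fully below. The median difference over all genes was 0.03, and at an unadjusted p below 0.05 there were 4.34% of genes higher and 3.86% lower, 8.20% in all.

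The block decided most of these calls. Without it 9 genes were called, all among the 69, namely ANGPTL4, CCN1 and ARRDC3 upwards and TRNP, TRNT, TRNC, TRNA, TRNN and OTUB2 downwards. Without replicate 1, 2, 3 or 4 the calls numbered 95, 34, 139 and 36, and 29 of the 69 genes were called in each of these fits. These 29 are 5 genes of the integrated stress response, 10 of the mitochondrial tRNA loci called lower, TRNE, the nuclear mitochondrial copies MTCO1P2 and MTND6P3, ND3, ANGPTL4, DDIT4, DEPP1, SLC2A1, ARRDC3, CCN1, DUSP1, MALAT1, CCL2 and OTUB2.

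**Figure D1:**
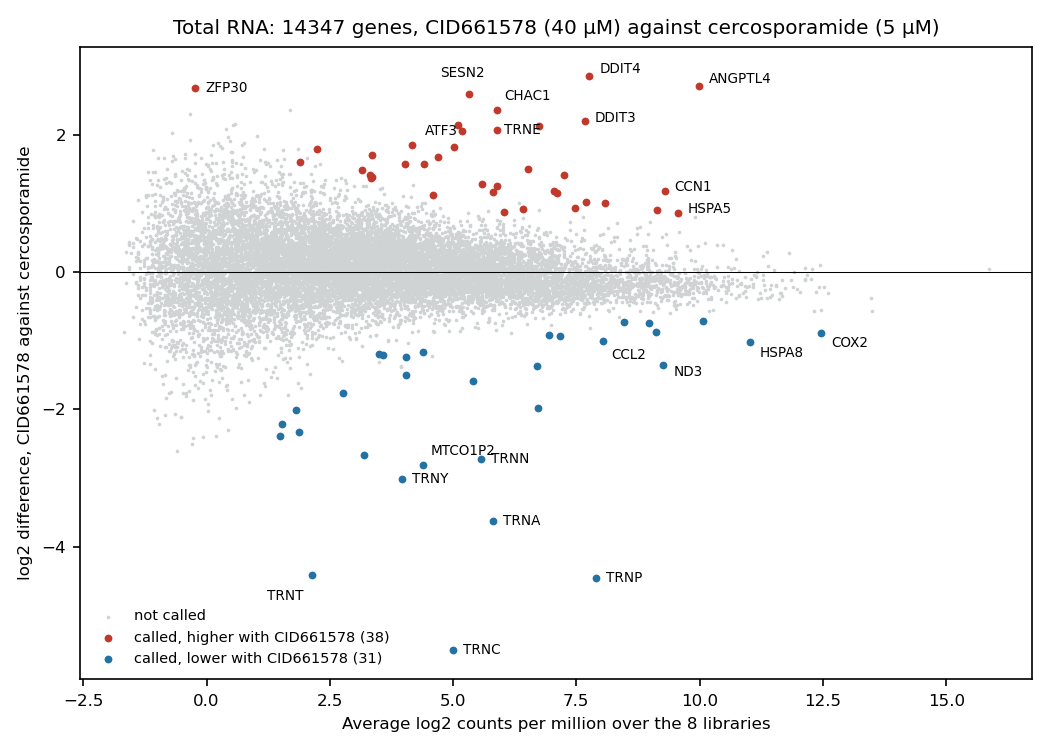
Difference between the compounds in total RNA. Each point is 1 of 14347 genes, with the average log2 CPM over the 8 libraries on the x axis and the log2 difference of CID661578 against cercosporamide on the y axis, and the 38 genes called higher and 31 called lower are coloured. The mitochondrial tRNA loci TRNC, TRNP and TRNT lie lowest, at −5.51, −4.45 and −4.41, and ANGPTL4 and DDIT4 are among the highest called genes, at 2.70 and 2.86.

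Genes of the integrated stress response were higher with CID661578. Of 24 measured members of a list of 25, 8 were called and all 8 were higher, beside 0.265% of all genes tested. A higher estimate was found for 22 of 24, against 52.5% of all genes tested. The median difference over the list was 0.87. The list and its members were chosen with earlier results of these data known. ATF4, the transcription factor at the centre of the response, stood at 135, 227, 461 and 237 CPM in replicates 1 to 4 with CID661578 and at 66.1, 99.0, 357 and 85.2 CPM with cercosporamide. The groups overlapped because replicate 3 was high in both, and the DMSO library of that replicate, at 331 CPM, was also above the other DMSO libraries, which ranged from 56.7 to 125 CPM. Within pairs ATF4 was higher with CID661578 4 of 4 times, with a difference of 1.02 ± 0.20 (SE, adjusted p = 0.0427).

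DDIT3, which encodes the pro-apoptotic factor CHOP, was measured at 307, 166, 450 and 275 CPM with CID661578 and at 49.6, 21.7, 310 and 46.5 CPM with cercosporamide. The rise over cercosporamide was 2.19 ± 0.31 (adjusted p = 0.00167), and the pair of replicate 3 differed by 0.54 where the other pairs differed by 2.57 to 2.93. SESN2, a regulator of amino acid sensing by mTORC1, had 32.1, 90.5, 75.5 and 65.8 CPM with CID661578 and 3.63, 13.8, 33.1 and 6.12 CPM with cercosporamide. Its difference of 2.6 ± 0.32 (adjusted p = 0.000484), 6.04-fold, exceeded those of the other members of the list. CHAC1, an enzyme that degrades glutathione, had 53.8, 141, 101 and 89.2 CPM with CID661578 against 10.0, 19.4, 48.3 and 10.4 CPM with cercosporamide. The groups did not overlap for CHAC1, and the difference was 2.36 ± 0.30 (adjusted p = 0.000486). TRIB3, a pseudokinase that restrains ATF4 and AKT, and ATF3, a stress-induced transcription factor, differed by 2.13 ± 0.30 and 2.06 ± 0.34 (adjusted p = 0.00167 and 0.00701). For ATF3 the library of replicate 3 stood at 78.1 CPM with cercosporamide, against 2.99 to 6.81 CPM in the other 3.

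STC2, a secreted glycoprotein, and SLC7A11, the cystine importer, were higher by 1.15 ± 0.24 and 1.57 ± 0.36 (adjusted p = 0.05 and 0.11). In SLC7A11 the pair of replicate 3 differed by only 0.04, at 28.2 against 27.4 CPM. Of the 16 members not called, SLC3A2 (0.80 ± 0.20), PSAT1 (0.91 ± 0.24) and CEBPG (1.00 ± 0.27) were nearest to the threshold, while ASNS, asparagine synthetase, had 0.88 ± 0.46 and ATF5 had −0.24 ± 0.36. Leaving out replicate 3 gave 11 called members and leaving out replicate 2 or 4 gave 5, which no longer included ATF4 (adjusted p up to 0.517), STC2 (up to 0.587) or SLC7A11 (up to 0.776, and also not called without replicate 1). SESN2, CHAC1, DDIT3, TRIB3 and ATF3 were called in each of the 4 fits.

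**Figure D2:**
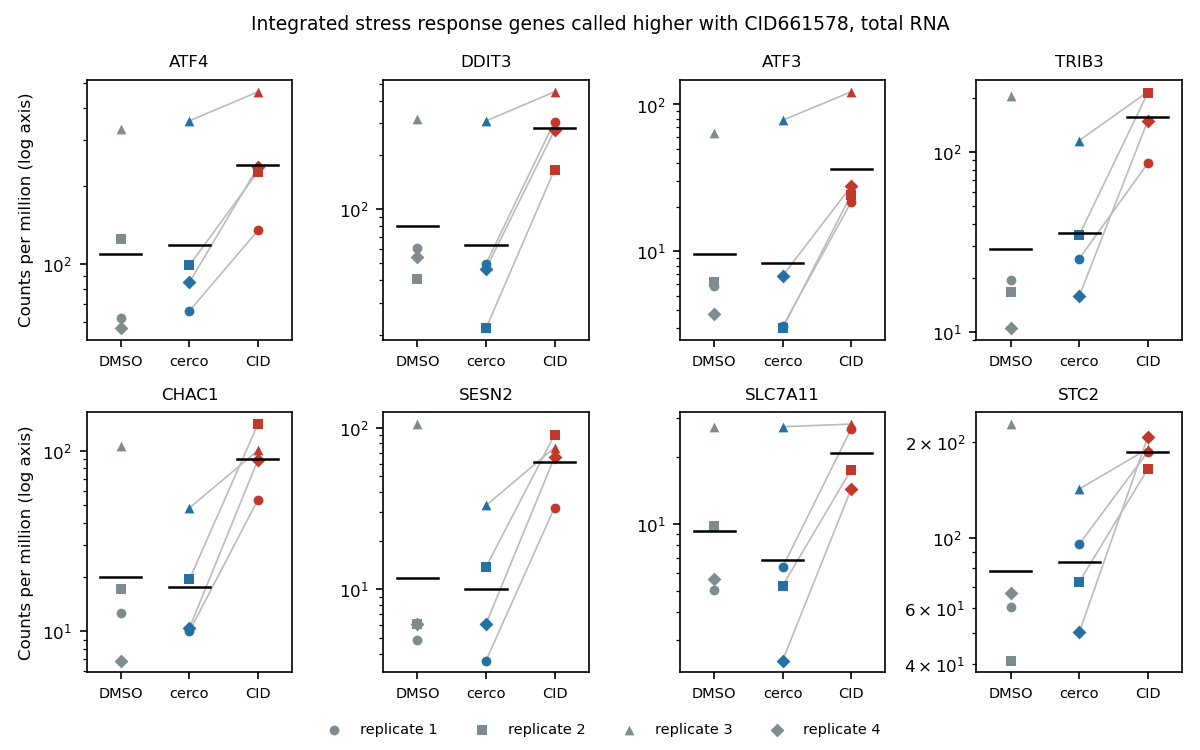
CPM on a log axis of the 8 integrated stress response genes called higher, in the 4 total RNA libraries of DMSO, cercosporamide (cerco) and CID661578 (CID). Symbols mark the replicate, grey lines join the compound libraries of the same replicate and black bars are geometric means. In ATF4, DDIT3 and ATF3 the triangle of replicate 3 stands above the other symbols in each treatment, and each grey line rises to CID661578.

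ATF4 acts with C/EBP proteins at a composite element whose core can be written TGATGNAA, so the 250 bases before the start of each gene were searched for it on both strands. The search window and promoters came from RefSeq on GRCh38, which is the build of hg38. The element occurred in 3.14% of 35116 promoters, in 2.19% of the 9525 tested genes with a promoter, in 3 of 32 genes called higher and in 0 of 13 called lower. Within the stress list it occurred in 2 of 7 called and 3 of 14 uncalled genes with a promoter. The matches of the called genes ATF3 and CHAC1 and of the uncalled ASNS are given with 20 bases on either side, read in the direction of the gene and with the element in capitals, since they let the called and uncalled members be compared. They lie at chr1:212565196-212565243 (plus strand), chr15:40953242-40953289 (plus strand) and chr7:97872449-97872496 (minus strand), and the CHAC1 match is on the opposite strand to the gene.
ATF3: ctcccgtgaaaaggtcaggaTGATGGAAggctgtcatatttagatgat
CHAC1: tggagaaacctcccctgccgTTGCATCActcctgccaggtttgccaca
ASNS: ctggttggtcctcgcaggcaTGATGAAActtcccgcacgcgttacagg
A match says that these letters occur in the window, and no more.

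Genes of endoplasmic reticulum stress and p53 targets showed fewer calls, to be read beside the 0.265% of all genes called higher. HSPA5, the main chaperone of the endoplasmic reticulum, and HERPUD1, a factor of its protein degradation, were 2 of 18 measured members called, both higher (0.87 ± 0.19 and 0.92 ± 0.22, adjusted p = 0.0828 and 0.13), and the list median was 0.49. With cercosporamide HSPA5 had 515, 333, 837 and 498 CPM, with CID661578 1258, 742, 1069 and 786 CPM, and with DMSO 581, 432, 2447 and 988 CPM. Replicate 3 of the DMSO libraries was therefore above every CID661578 library. Neither gene was called without replicate 2 or replicate 4 (adjusted p up to 0.708 for HSPA5 and 0.841 for HERPUD1, which was also lost without replicate 1). CDKN1A and MDM2, the best known p53 targets, differed by 0.42 ± 0.23 and −0.18 ± 0.31 and were not called, and of 11 measured members of that list GDF15, a secreted stress cytokine, was called (1.5 ± 0.30, adjusted p = 0.0407, and 0.398 without replicate 4). Outside the lists, and named after their values were seen, PCK2, the mitochondrial PEPCK, and SLC38A2 were higher by 1.12 ± 0.27 and 0.90 ± 0.21 (adjusted p = 0.138 and 0.128, and up to 0.815 and 0.798 with 1 replicate left out).

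ANGPTL4, a secreted inhibitor of lipoprotein lipase that responds to PPARs, hypoxia and glucocorticoids, was the most abundant RNA among those with more than a 4-fold rise. It stood at 1075, 2984, 1131 and 1840 CPM with CID661578, at 329, 377, 195 and 154 CPM with cercosporamide and at 213, 208, 438 and 158 CPM with DMSO. The groups were far apart, with every CID661578 library more than 2-fold above every cercosporamide library, and the difference was 2.70 ± 0.25 (adjusted p = 1.71e-05, 6.52-fold). DDIT4, an mTORC1 inhibitor induced by hypoxia, glucocorticoids and ATF4, had 270, 376, 311 and 496 CPM with CID661578 and 34.1, 43.9, 185 and 22.1 CPM with cercosporamide. Replicate 3 was again high with cercosporamide and with DMSO (243 CPM), yet no cercosporamide library reached the CID661578 range, and the difference was 2.86 ± 0.41 (adjusted p = 0.00175).

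Of the 19 measured genes on the list of hypoxia and glucocorticoid targets, 4 were called, all higher, beside 0.265% of all genes tested. A higher estimate was found for 18, against 52.5% of all genes, and the list median was 0.65 beside 0.03. Besides DDIT4 these were SLC2A1, the glucose transporter GLUT1 (1.41 ± 0.24, adjusted p = 0.00858), KDM3A, a histone demethylase (1.70 ± 0.35, adjusted p = 0.0525), and TSC22D3, the glucocorticoid-induced GILZ (1.67 ± 0.37, adjusted p = 0.0969). SLC2A1 had 167, 331, 100 and 280 CPM with CID661578 and 107, 129, 39.2 and 56.5 CPM with cercosporamide, so the groups overlapped while each pair had the same sign. KDM3A and TSC22D3 were not called without replicate 2 or 4 (adjusted p up to 0.286 and 0.762, KDM3A also without replicate 1), and 2 members were called without replicate 2 and 2 without replicate 4. Among members that did not pass, VEGFA had 0.65 ± 0.39, ADM 0.65 ± 0.19 and PDK1 0.56 ± 0.40. The list of glycolysis had 1 call of 19, SLC2A1, and a median of 0.19, with HK2 at 0.95 ± 0.36. DEPP1, a FOXO target (1.82 ± 0.25, adjusted p = 0.00109), and ARRDC3, an arrestin-domain protein (2.13 ± 0.31, adjusted p = 0.00184), did not overlap between the groups. ARRDC3 had 116, 48.4, 27.7 and 33.3 CPM with CID661578 and 14.7, 8.06, 15.2 and 7.93 CPM with cercosporamide.

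CCN1, a matricellular protein induced through YAP and TEAD, was tightly spread in both groups. It had 813, 899, 774 and 988 CPM with CID661578, 413, 383, 452 and 291 CPM with cercosporamide and 548, 366, 536 and 364 CPM with DMSO. All CID661578 libraries lay above all others, with a difference of 1.19 ± 0.19 (adjusted p = 0.0059). CCN2, its close relative, and ANKRD1, a nuclear ankyrin-repeat protein, were the other 2 of 12 list members called (0.93 ± 0.20 and 1.38 ± 0.31, adjusted p = 0.0599 and 0.0999), and both were lost without replicate 2 or 4, with adjusted p up to 0.77 and 0.608, ANKRD1 also without replicate 1. These 3 calls stand beside 0.265% of all genes called higher. The median over the list was 0.18, and AXL and AMOTL2 had 0.03 ± 0.18 and 0.70 ± 0.27. Of 24 measured ERK feedback and immediate early genes, DUSP1, a phosphatase of MAP kinases, was called (1.25 ± 0.21, adjusted p = 0.00803), at 47.6, 105, 107 and 71.7 CPM with CID661578 against 17.0, 44.5, 54.0 and 28.6 CPM with cercosporamide. DUSP6 and EGR1, close readouts of ERK, had 0.91 ± 0.27 and 1.41 ± 0.60 and were not called. ERRFI1, a feedback inhibitor of EGFR, and GADD45B, a stress adaptor of MAP kinase signalling, were higher outside the lists (1.17 ± 0.25 and 1.17 ± 0.26, adjusted p = 0.068 and 0.0969, and up to 0.522 and 0.795 with 1 replicate left out).

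For IQGAP1, APP, ARID1B and SLF2, all called higher, the DMSO libraries overlapped those of CID661578, and every cercosporamide library stood below both. IQGAP1, a scaffold of the cytoskeleton, had 95.6, 57.4, 51.5 and 67.0 CPM with CID661578, 21.3 to 30.3 CPM with cercosporamide and 64.5, 67.4, 84.6 and 51.0 CPM with DMSO (1.28 ± 0.25, adjusted p = 0.0334). APP, the amyloid precursor protein, had 76.6 to 95.1, 43.9 to 48.4 and 64.7 to 92.2 CPM in the same order (0.87 ± 0.20, adjusted p = 0.104). ARID1B, a subunit of chromatin remodellers, had 3.77 to 7.93, 1.11 to 2.75 and 6.27 to 8.20 CPM (1.60 ± 0.38, adjusted p = 0.128). SLF2 had 7.76 to 24.6, 3.44 to 6.64 and 8.12 to 15.7 CPM. IQGAP1 was not called without replicate 4 (adjusted p = 0.257), APP was not called without replicate 2 or 4, and ARID1B was lost whichever replicate was left out. The nuclear-retained RNA MALAT1 was also higher with CID661578 (1.57 ± 0.29, adjusted p = 0.018). It had 59.4, 28.0, 17.3 and 22.8 CPM with CID661578 against 13.4, 8.24, 5.2 and 14.7 CPM with cercosporamide. NEAT1, which forms paraspeckles, had 1.51 ± 0.49 without a call. Total RNA here came from cytosolic lysate, and carry-over of nuclear RNA was not tested. ZEB1, ZNF160, ZFP30, SLF2, FUT11 and TFRC, the transferrin receptor, were also called higher, with differences of 1.41, 1.79, 2.68, 1.37, 1.49 and 1.01. TFRC was lost without replicate 2, FUT11 without replicate 2 or 4 and the others without replicate 1, 2 or 4. ZFP30 had few reads, at 0.0906 to 0.259 CPM with cercosporamide. Of all 38 genes called higher, the mean log2 CPM of DMSO lay between the compounds for 23, at or below that of cercosporamide for 14 and above that of CID661578 for 1. The genes were picked by the difference between the compounds, which favours a DMSO mean between them. The share over all genes was not computed, so these counts cannot be read as a trait of the called genes.

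**Figure D3:**
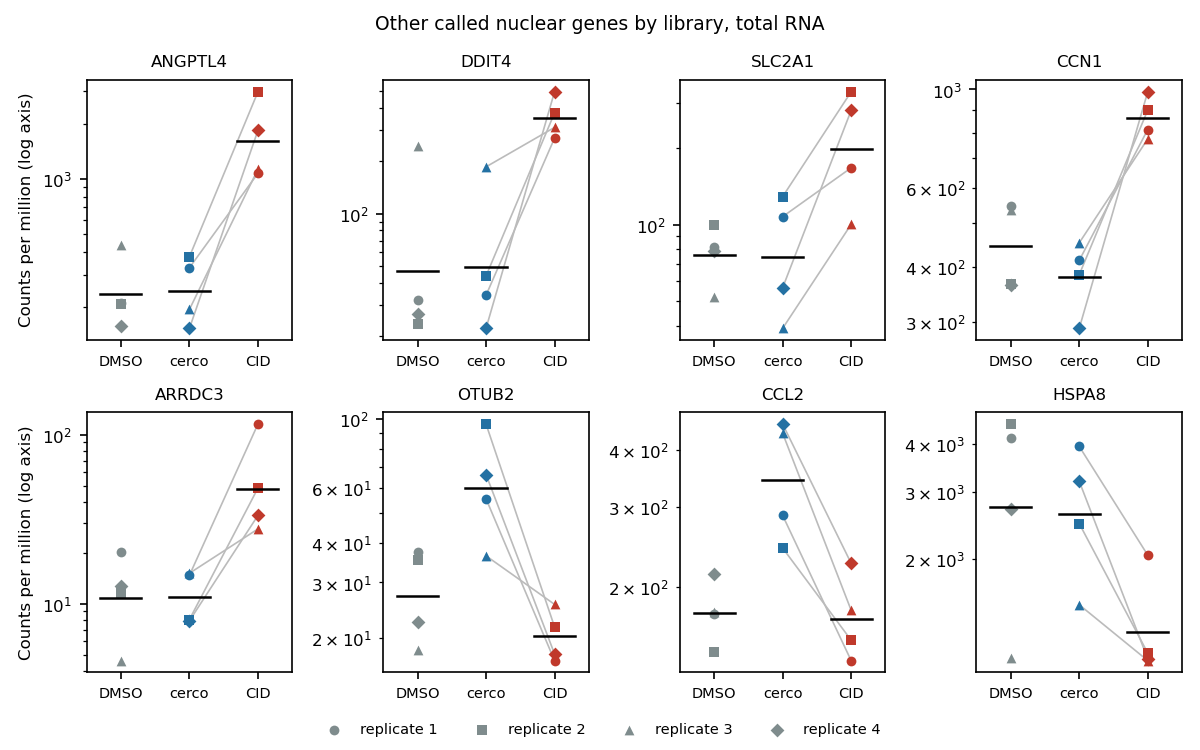
CPM on a log axis of 8 other called nuclear genes in the 4 total RNA libraries of DMSO, cercosporamide (cerco) and CID661578 (CID), with symbols for the replicate, grey lines joining the compound libraries of a replicate and black bars at geometric means. ANGPTL4, DDIT4, SLC2A1, CCN1 and ARRDC3 rise along each grey line from cercosporamide to CID661578, and OTUB2, CCL2 and HSPA8 fall along each of them.

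The genes with the largest falls belonged to the mitochondrial genome. Of its 37 genes all were tested, 13 were called lower and 1, TRNE, was called higher, beside 0.216% and 0.265% of all genes. The lower group held 11 of the 22 tRNA loci and the mRNAs ND3 and COX2. The tRNA loci were taken as a group after their values were seen. Counting ignored the strand, so reads from a tRNA and from the opposite strand cannot be told apart. A read counted at a tRNA locus may come from a precursor or from a finished tRNA, so a lower count is not by itself a lower level of the tRNA. Reads that also align to nuclear copies of mitochondrial DNA were counted at each place, so MTCO1P2 and MTCO2P12, called lower, and MTND6P3, called higher, may share reads with the genes they resemble.

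TRNP, the tRNA for proline at M:15956-16023 on the minus strand, had the smallest p of all genes. Its level was 16.4, 32.5, 8.24 and 28.8 CPM with CID661578, 530, 721, 200.2 and 382 CPM with cercosporamide and 338, 385, 145 and 160.2 CPM with DMSO. Each CID661578 library lay far below each library of the other treatments, and the difference was −4.45 ± 0.24 (adjusted p = 9.05e-09), 21.9-fold. TRNC, the tRNA for cysteine at M:5761-5826, had 0.476, 5.17, 0.162 and 1.04 CPM with CID661578 and 15.6, 74.8, 36.7 and 120 CPM with cercosporamide (−5.51 ± 0.47, adjusted p = 7.96e-06). The CID661578 libraries held as few as 2 reads of TRNC. With DMSO TRNC had 6.39 to 49.1 CPM, which lay between the compounds in every replicate. TRNT, the threonine tRNA next to TRNP, had 0.396, 0.585, 0.162 and 0.283 CPM against 11.0, 12.0, 1.99 and 7.33 CPM (−4.41 ± 0.46, adjusted p = 5.97e-05), with 2 to 6 reads per CID661578 library. TRNA (alanine), TRNN (asparagine) and TRNY (tyrosine), which sit beside TRNC on the minus strand, were lower by −3.63 ± 0.38, −2.73 ± 0.29 and −3.01 ± 0.41.

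TRNE, the tRNA for glutamate at M:14674-14742, went the other way. It had 76.4, 180, 41.6 and 82.9 CPM with CID661578, 17.6, 37.9, 8.85 and 25.6 CPM with cercosporamide and 13.2, 22.2, 7.66 and 12.9 CPM with DMSO. The groups did not overlap, and the difference was 2.07 ± 0.22 (adjusted p = 5.97e-05). TRNE lies on the minus strand between ND6 and CYTB, and the nuclear copy MTND6P3 was higher by 1.85 ± 0.28. ND6 itself had the opposite sign, at −0.54 ± 0.21 without a call. The sequences of the most extreme loci, from GRCh38 and in the direction of the tRNA with the anticodon in capitals, are given to show which tRNA each locus encodes. They do not show which strand the reads came from.
TRNP: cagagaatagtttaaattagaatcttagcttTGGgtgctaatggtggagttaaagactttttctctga
TRNC: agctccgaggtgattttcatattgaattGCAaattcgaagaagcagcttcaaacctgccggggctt
TRNT: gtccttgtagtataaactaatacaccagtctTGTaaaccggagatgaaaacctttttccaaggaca
TRNA: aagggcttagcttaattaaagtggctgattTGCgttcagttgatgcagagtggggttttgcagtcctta
TRNE: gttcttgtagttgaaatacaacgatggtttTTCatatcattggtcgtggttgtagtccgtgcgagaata

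Over all 22 tRNA loci 21 had a lower estimate, each of them lower in 4 of 4 pairs, with a median of −2.0 beside the 0.03 of all genes. Of all genes, 47.5% had a lower estimate and 9.0% were lower in 4 of 4 pairs. Of the 8 loci on the minus strand 6 were called lower, and of the 14 on the plus strand 5 were. The loci not called ranged from TRNR at −2.31 ± 0.57 and TRNS2 at −1.72 ± 0.54, which had few reads, to TRNL1 at −0.49 ± 0.27. TRNQ, for glutamine, was called (−1.99 ± 0.29, adjusted p = 0.00175) although its groups overlapped, at 30.4, 80.04, 18 and 34.4 CPM with CID661578 and 69.1, 203, 86.6 and 317 CPM with cercosporamide. TRNI, TRNF and TRNH, for isoleucine, phenylalanine and histidine, were lower by −2.67, −2.34 and −2.39. TRNW, for tryptophan, was called at −2.01 ± 0.47 (adjusted p = 0.119) but not without replicate 1, 2 or 4 (up to 0.757). As a share of all reads, the 22 loci took 0.0246% ± 0.0146 (SD, n = 4) with CID661578, 0.101% ± 0.0442 with cercosporamide and 0.0613% ± 0.0225 with DMSO. The shares of the compounds did not overlap, which describes loci grouped after their values were seen and was not tested.

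The 13 mitochondrial mRNAs differed less. ND3, a complex I subunit, had 186, 424, 399 and 399 CPM with CID661578, 758, 1213, 711 and 826 CPM with cercosporamide and 652 to 910 CPM with DMSO. Every CID661578 library was below every other library, and the difference was −1.36 ± 0.20 (adjusted p = 0.00273). COX2, a complex IV subunit, had 3916, 4745, 2282 and 4634 CPM with CID661578 and 9768, 8285, 3503 and 8096 CPM with cercosporamide, so that the low cercosporamide library of replicate 3 overlapped the other group (−0.89 ± 0.17, adjusted p = 0.0307, and 0.217 without replicate 2). edgeR, DESeq2 and limma each called 2 of the 13 mRNAs, both lower, where edgeR called 0.216% of all genes lower. A lower estimate was found for 12 of the 13, against 47.5% of all genes, with a list median of −0.37. At an unadjusted p below 0.05, 6 were lower and 0 higher by edgeR, beside 3.86% and 4.34% of all genes. CYTB, COX3, ND6 and COX1 had −0.56 ± 0.17, −0.56 ± 0.19, −0.54 ± 0.21 and −0.37 ± 0.16, and ND5 had 0.05 ± 0.21. The median over the mRNAs was −0.79, −0.50, −0.17 and −0.19 in the pairs of replicates 1 to 4. Their share of all reads was 2.76% ± 0.877 with CID661578, 3.63% ± 1.22 with cercosporamide and 4.00% ± 0.962 with DMSO, and it was lower with CID661578 in 4 of 4 pairs. The two-sided exact permutation p was 0.314 without pairing and 0.125 within pairs, the smallest that 4 pairs allow, so a paired test could not reach 0.05. The rRNAs RNR1 and RNR2, whose reads the authors had partly removed, took 6.51% ± 1.44 and 5.83% ± 1.32 of reads with CID661578 and cercosporamide, lower in 2 pairs and higher in 2 (exact permutation p = 0.571, and 0.5 within pairs).

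**Figure D4:**
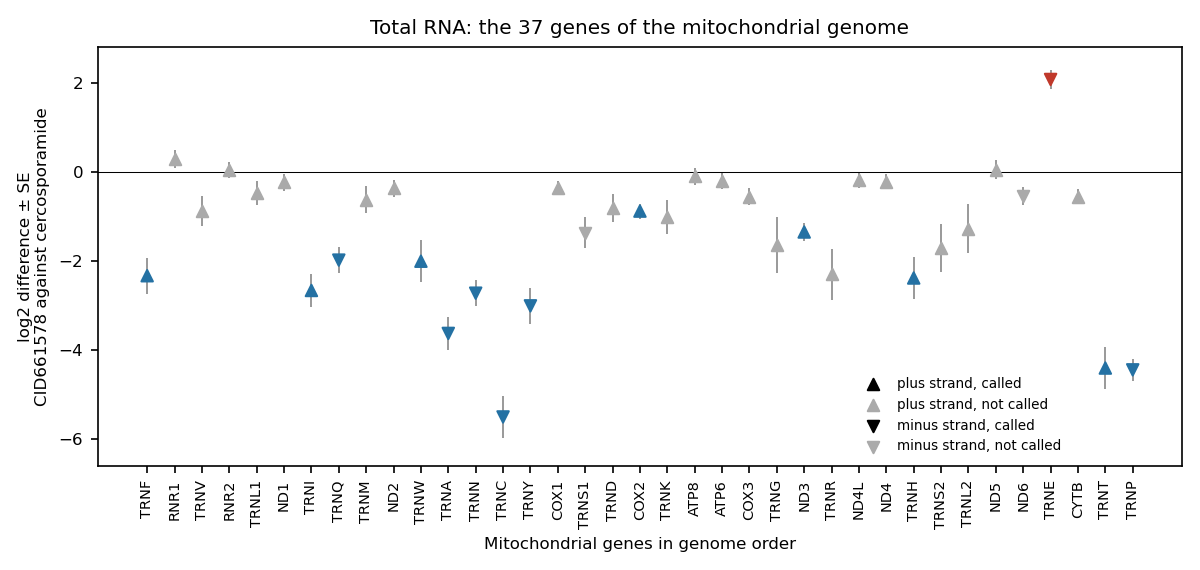
Log2 difference between the compounds in total RNA for the 37 mitochondrial genes in genome order, with bars of ± 1 SE. Triangles pointing up mark genes on the plus strand and triangles pointing down genes on the minus strand, blue and red mark genes called lower and higher, and grey marks genes not called. TRNE stands alone above zero among the called genes at 2.07, while TRNC, TRNP, TRNT, TRNA and TRNY lie below −3.

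The other 18 genes called lower are encoded in the nucleus, 2 of them the mitochondrial copies named above. OTUB2, a deubiquitinase, had 16.9, 21.6, 25.5 and 17.7 CPM with CID661578, 55.5, 96.2, 36.5 and 66.4 CPM with cercosporamide and 37.6, 35.5, 18.3 and 22.5 CPM with DMSO. All CID661578 libraries were below all cercosporamide libraries, and the difference was −1.58 ± 0.27 (adjusted p = 0.0102). The chemokine CCL2 had 138, 153, 178 and 225 CPM with CID661578, 287, 244, 436 and 456 CPM with cercosporamide and 174, 144, 176 and 213 CPM with DMSO (−1.01 ± 0.18, adjusted p = 0.0176). Every cercosporamide library had more CCL2 RNA than every CID661578 and DMSO library. The chemokine CXCL1 was lower by −1.76 ± 0.40 (adjusted p = 0.104, and up to 0.563 without replicate 3 or 4), and CXCL8, at −1.22 ± 0.31, did not pass. CCL2 and CXCL1 were the 2 calls among 16 NF-κB targets, beside 0.216% of all genes called lower. The median of that list was −0.09, and NFKBIA, the inhibitor that NF-κB itself induces, had −0.06 ± 0.22.

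HSPA8, the constitutive cytosolic HSP70, was lower with CID661578, at 2052, 1139, 1089 and 1101 CPM against 3946, 2482, 1523 and 3200 CPM with cercosporamide and 4160, 4512, 1106 and 2703 CPM with DMSO. Replicate 3 was the lowest in each treatment, the groups overlapped through replicate 1 of CID661578, and the difference was −1.02 ± 0.19 (adjusted p = 0.0179, and 0.176 without replicate 2). HSPA8 was the 1 call among 17 heat shock genes, beside 0.216% of all genes called lower. Without replicate 3 this list had 4 calls, all lower. DNAJB1 and HSPA1A, an inducible HSP40 and HSP70, had −0.64 ± 0.22 and −0.82 ± 0.31. HAS3, a hyaluronan synthase, and B3GNT7, a glycosyltransferase, were lower by −1.51 ± 0.27 and −1.37 ± 0.25 (adjusted p = 0.0179 and 0.0176), both not called without replicate 2 (0.281 and 0.168). ADORA2B, an adenosine receptor, EFNA1, an ephrin ligand, SKP2, the F-box protein that targets CDKN1B, and UBE2C, a ubiquitin-conjugating enzyme of mitosis, were lower by −0.94 ± 0.19, −1.16 ± 0.25, −1.20 ± 0.28 and −0.72 ± 0.18. SKP2 had 5.82 to 8.40 CPM with CID661578, 13.3 to 19.9 CPM with cercosporamide and 13.6 to 24.2 CPM with DMSO. CDKN1B had 1.63 ± 0.58 without a call. It had few reads, 1 to 12 per cercosporamide library, and the pair of replicate 4 differed by 3.94. A link between the RNAs of SKP2 and CDKN1B was not tested. ADORA2B was not called without replicate 2, EFNA1 and SKP2 without replicate 2 or 4, and UBE2C without any 1 of the replicates, with adjusted p up to 0.573, 0.646, 0.691 and 0.592. KDF1, GEMIN6, ATP6V0E1, FGFBP1, PRSS23 and LINC02697 were also lower, by −2.21, −0.92, −0.75, −1.21, −0.72 and −1.24, and each of these was lost without replicate 2 and without replicate 4. For the 31 genes called lower the mean log2 CPM of DMSO lay between the compounds in 28, at or above cercosporamide in 2 and at or below CID661578 in 1. As for the genes called higher, picking by the difference between the compounds favours this, and the share over all genes was not computed.

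RNAs of the kinases themselves and of the cap-binding complex were not called. MKNK2, which encodes MNK2, was low, at 2.46, 7.70, 7.43 and 4.62 CPM with CID661578 and 3.74, 7.61, 2.54 and 6.47 CPM with cercosporamide, and the difference of 0.10 ± 0.40 was within the spread. MKNK1 had −0.42 ± 0.25, EIF4E −0.10 ± 0.21 and EIF4G1 −0.03 ± 0.23. Of 13 measured genes of this group 0 were called by edgeR and limma and 1 by DESeq2. At an unadjusted p below 0.05 there were 4, 2 higher and 2 lower, where 8.20% of all genes passed in either direction. EIF4A2, an RNA helicase of the complex, and EIF4B had 0.89 ± 0.26 and 0.50 ± 0.22. EIF4E2 and EIF4EBP2 had −0.59 ± 0.19 and −0.80 ± 0.29.

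Nuclear genes of the respiratory chain and of both kinds of ribosome had mostly lower estimates, with 0 calls by edgeR. The list of complexes I to V, taken by symbol, held 90 tested genes, of which 10 are pseudogenes and are left out here. Of the remaining 80, 74 had a lower estimate, 92.5% against 47.5% of all genes, with a median of −0.24. In 4 of 4 pairs 36 of them were lower, 45% against 9.0% of all genes. edgeR, DESeq2 and limma called 0 of them, and 14 were lower at an unadjusted p below 0.05, 17.5% against 3.86% of all genes. ATP5MC3, an ATP synthase subunit, had −0.55 ± 0.17 and NDUFA9, a complex I subunit, −0.57 ± 0.18. Of 77 mitochondrial ribosomal protein genes 65 had a lower estimate (median −0.23) and 26 were lower in 4 of 4 pairs, 33.8%. There were 0 calls by edgeR or limma and 1 by DESeq2, and 13 genes, 16.9%, were lower at an unadjusted p below 0.05. MRPL36 had −0.60 ± 0.18. Of 83 cytosolic ribosomal protein genes 73 had a lower estimate (median −0.16), but 11 were lower in 4 of 4 pairs, 13.3%, and 5 were lower at an unadjusted p below 0.05, 6.02%, which is nearer to the shares of all genes. There were 0 calls by any of these tools. Genes of 1 family are not independent replicates of each other.

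Other lists showed few or no calls. ID genes with TGF-β and BMP targets had 11 of 12 higher estimates (median 0.48), against 52.5% of all genes. There were 0 calls by edgeR and limma and 1 by DESeq2. At an unadjusted p below 0.05, 4 of the 12 were higher, beside 4.34% of all genes. ID2 missed the threshold at 1.09 ± 0.27 (adjusted p = 0.16). The NRF2 list had 0 of 17 calls by all 3 tools and 2 higher at an unadjusted p below 0.05, with HMOX1, heme oxygenase, at 0.81 ± 0.28. Among 4 measured AHR targets 0 were called by edgeR and limma and 1 by DESeq2, and CYP1B1, a monooxygenase, had −0.86 ± 0.27, with 2 lower at an unadjusted p below 0.05. Cholesterol synthesis, the G1 and S phase, JAK and STAT, Notch, tubulin and MYC lists had 0 calls by edgeR among 24, 24, 15, 13, 12 and 24 genes, and limma called 0 as well. DESeq2 called 1 of the cholesterol genes and 0 in the other 5. At an unadjusted p below 0.05 these lists held 2, 2, 2, 1, 0 and 4 genes, where 8.20% of all genes passed in either direction. Of 24 mitosis genes UBE2C was called, beside 0.216% of all genes called lower, and the list median was 0.02. The nuclear-retained RNAs had 1 call of 5, MALAT1, beside 0.265% of all genes called higher.

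Polysome-associated RNA of the same lysates showed many more differences between the compounds. There, 9.34% of the 14347 genes were higher and 11.6% lower with CID661578, and 9.68% and 9.49% without replicate 4. Of the 69 genes called in total RNA, 63 had the same direction in polysome-associated RNA and 53 were called there in that direction, 29 of 38 upwards and 24 of 31 downwards. Without replicate 4 these numbers were 64 and 48. The fractions come from the same plates, so their agreement is no independent check. The difference between the compounds itself differed between the fractions, at an adjusted p below 0.15 of the compound by fraction term, for 12.4% of genes and for 22 of the 69. Without replicate 4 it did so for 9.35% of genes and again for 22 of the 69. In 20 of the 22 the difference was smaller or opposite in polysome-associated RNA, and it was larger in the other 2, ATF4 and MTCO2P12. The 69 genes were picked by their difference in total RNA, which enters this term. That choice favours smaller differences in polysome-associated RNA, so the 22 of 69 and the 20 of 22 cannot be read as traits of the fractions. The fractions were not called different without replicate 4 for MTCO2P12, OTUB2, KDF1 and ZFP30.

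ATF4 RNA differed by 2.24 ± 0.21 in polysome-associated RNA against 1.02 ± 0.20 in total RNA, and the excess of 1.22 ± 0.28 passed (adjusted p = 0.00763, and 0.0269 without replicate 4). For its targets SESN2, CHAC1, DDIT3 and TRIB3 the difference in polysome-associated RNA was 2.33, 2.41, 2.37 and 2.31, or 2.09, 2.24, 2.53 and 2.16 without replicate 4, and the fractions were not called different. HSPA5, APP, ZEB1 and ATP6V0E1, called in total RNA, had −0.16 ± 0.16, −0.23 ± 0.17, −0.01 and 0.02 ± 0.17 in polysome-associated RNA. The difference between fractions passed for these 4 genes at adjusted p = 0.0183, 0.0073, 0.021 and 0.079, and also without replicate 4. CCN1 had 0.27 ± 0.16 in polysome-associated RNA (difference between fractions −0.91 ± 0.26, adjusted p = 0.0322, and 0.147 without replicate 4). ANGPTL4 and ARRDC3 kept smaller rises there, of 1.69 ± 0.18 and 1.06, or 1.54 and 1.04 without replicate 4. TRNP was lower by −3.01 ± 0.36 in polysome-associated RNA, less than in total RNA (adjusted p = 0.0105). Without replicate 4 the difference in polysome-associated RNA was −3.46, and the adjusted p of the difference between fractions was 0.0931. The mitochondrial mRNAs CYTB, ND5 and ND6, which were not called in total RNA, were lower there by −2.22 ± 0.17, −1.75 ± 0.17 and −2.14, and the fractions differed for each of them (adjusted p = 0.000965, 0.000104 and 0.00045). Without replicate 4 they were lower by −2.27, −1.76 and −2.28, and the adjusted p was 0.0147 for each. These were the largest falls of the 13 mRNAs there. ND1 and ND4L, at 0.02 and −0.37, were not called in polysome-associated RNA, though ND4L was without replicate 4 (−0.76, adjusted p = 0.0167). The mitochondrial rRNAs RNR1 and RNR2 were higher there, by 1.03 and 2.02, or 0.94 and 1.86 without replicate 4.

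**Figure D5:**
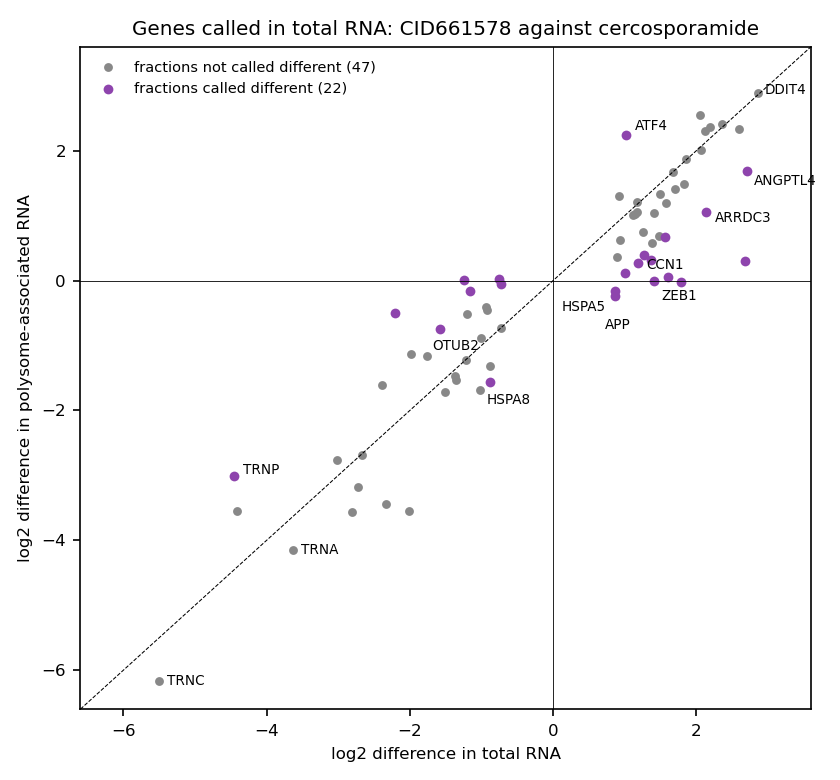
The 69 genes called in total RNA, with the log2 difference of CID661578 against cercosporamide in total RNA on the x axis and in polysome-associated RNA on the y axis. The dashed line marks equal differences, and purple marks the 22 genes for which the difference between fractions was called, of which ATF4 lies above the line at 2.24 against 1.02 and APP and HSPA5 lie near 0 on the y axis.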

How the data were processed

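Total cytosolic and polysome-associated RNA of PANC-1 plates was sequenced as Smart-seq2 libraries. The authors deposited counts, whole reads per gene without normalization, for 54583 genes. Per the paper's methods they removed rRNA reads, aligned to hg38 with HISAT2 and counted RefSeq genes with featureCounts at default settings, which ignore strand. The 8 libraries were fitted with edgeR 4.0.16 in R 4.3.3 (TMM, quasi-likelihood F test, Benjamini-Hochberg), with replicate as a block because the methods name it as the batch. Deviations of same-numbered libraries from their group means correlated with r = 0.05, 0.49, 0.32 and 0.03 in replicates 1 to 4. For CID661578 replicates 2 and 3 the same-numbered cercosporamide library gave the highest r. CID661578 replicate 1 correlated more with cercosporamide replicate 3 (r = 0.26), and CID661578 replicate 4 more with cercosporamide replicate 2 (r = 0.15). Pairing by number was thus not visible in replicates 1 and 4. The threshold of 0.15 follows the study's methods. CPM are counts per TMM library size, without a spike-in, so differences are relative. Shares of reads were compared with exact permutation tests.

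The rule for named genes took called genes with the same sign in the 4 pairs and a mean level of 3 or more on the log2 CPM scale, the 10 with the largest difference in each direction, then the MNK genes, EIF4E, EIF4G1, JAK3 and the mitochondrial mRNAs, and in each list the called members or the 2 with the smallest p. JAK3 had a zero count and was not tested. Any other gene was picked with its values in view. The members and lists were chosen with earlier results of these data known. The fit was tested on simulated data. Alternatives were DESeq2 1.42.0, limma 3.58.1, other normalizations and filters, all 12 total RNA libraries, removal of the GC trend, no block, a stricter threshold and each replicate left out. Leaving pseudogenes out of the complex I to V list and permuting shares within pairs were chosen after seeing the data. Promoters and tRNA sequences came from RefSeq on GRCh38. A marker of the duct list is not reported here.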

Additional observations from a re-analysis of the deposited data

Results flagged for a closer look

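In a group of 4 libraries a value was listed when its gap to the nearest of the others exceeded Dixon's critical value. This was the case for 21 of 174 groups, where chance gives about 1 in 20. Of these, replicate 3 with cercosporamide was high in ATF3 (78.1 CPM), ATF4 (357), DDIT3 (310), DDIT4 (185), ANKRD1 (14.0), EIF4A2 (71.0), HERPUD1 (116), IRF1 (44.5), KDM3A (7.30), SLC7A11 (27.4) and TSC22D3 (57.4), and low in CYTB (3167) and ND4L (690.2). With CID661578, replicate 3 was high in ATF3 (122 CPM) and DUSP6 (62.9) and low in HK2 (4.69), and replicate 1 was high in HSPA8 (2052) and NDUFA9 (373) and low in ND3 (186). Replicate 4 with cercosporamide was low in RPS15 (1040 CPM) and high in TUBA4A (22.3). The stress genes of replicate 3 were also high in the DMSO library of that replicate, at 318 CPM for DDIT3 and 243 CPM for DDIT4, and the cause was not tested.

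The difference between the compounds differed between polysome-associated and total RNA, by the compound by fraction term of edgeR, for 23 of the 87 genes that the rule names. Of all genes tested, 12.4% passed. Called genes among the 87 were picked by their difference in total RNA, which enters the term, so the count cannot be weighed against that share. The change of the log2 difference, polysome-associated minus total, was positive for ATF4 (1.22), ATP5MC3 (1.03), BIRC5 (0.75), ID2 (0.95), MRPS16 (1.2), OTUB2 (0.84), RPL37 (0.76), TRNP (1.58) and UBE2C (0.68). It was negative for ANGPTL4 (−1.0), ARRDC3 (−1.07), ATP6 (−0.90), CCN1 (−0.91), COX1 (−0.95), CYP1B1 (−0.97), CYTB (−1.65), HSPA5 (−1.01), MALAT1 (−0.93), MCM6 (−1.07), ME1 (−1.12), ND5 (−1.78), ND6 (−1.57) and RBPJ (−0.84). Leaving out replicate 4, which holds the shallow polysome library, OTUB2, ID2 and RBPJ were not called (adjusted p = 0.23, 0.17 and 0.172).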

How the results depend on the processing

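The calls in total RNA depended on the block, on the tool and filter and on single replicates. Against 38 genes higher and 31 lower, there were 3 and 6 without the replicate block, 106 and 76 with DESeq2, 95 and 75 with no filter on low counts, 317 and 229 with the GC trend of each library removed, and 20 and 18 at an adjusted p below 0.05. With 1 replicate left out the calls ranged from 16 to 81 higher and from 16 to 58 lower, fewest without replicates 2 and 4 and most without replicate 3. Calls lost were 14, 37, 5 and 34 without replicates 1 to 4. limma, DESeq2's size factors, normalization without mitochondrial genes, filterByExpr and all 12 total RNA libraries gave 63 to 75 calls, of which 60 to 69 were among the 69. The 69 called genes kept their direction in every alternative that tested them, whereas estimates near 0 that were not called changed sign in some, namely ND5 (also without the block), ATP8, EIF4G1, EIF4E, MKNK2, RNR1 and RNR2. The median of the mitochondrial mRNAs stayed between −0.43 and −0.20. In polysome-associated RNA, 1340 genes higher and 1659 lower became 58 and 88 without the block, and ranged from 748 to 1389 and from 792 to 1361 with 1 replicate left out. The 1782 genes that differed between fractions became 905 without the block and ranged from 504 to 2218 with 1 replicate left out. The causes were not tested. Depth limits loci with few reads, such as TRNT, TRNR and TRNS2.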
